A study of Mus musculus with 10 samples.

Results

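The homeostatic genes of microglia, 33 genes chosen by symbol, were followed in RNA from sorted hippocampal microglia of 3xTg AD mice that had received PBS or glatiramer acetate (GA). All 33 were found among the 55453 genes of the deposited count table, and all 33 were among the 14481 genes kept by the filter on low counts. 3xTg AD mice carry mutant human transgenes, among them APP (Swedish) and MAPT, under the Thy1.2 promoter, which is used to drive expression in neurons, and the colony was kept homozygous. All 10 libraries came from female 3xTg mice older than 15 months. The 5 PBS libraries (388_1 to 388_5) came from mice given PBS under the skin, and the 5 GA libraries (394_1, 394_2, 400_1, 400_2 and 400_3) from mice given 0.1 mg of GA weekly, both for about 8 weeks. GA is a mixture of random polypeptides used against relapsing multiple sclerosis, and the comparison asked whether microglia changed with it. Non-transgenic mice were not analysed here. The labels do not say that each library came from a separate mouse, so the p-values below measure the spread between these libraries. Every PBS library carried the title prefix 388 and every GA library the prefix 394 or 400, so that the prefix, whose meaning is not stated, and the treatment cannot be told apart.

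Microglia are the resident macrophages of the brain. In the healthy brain they express a set of genes that other macrophages express little or not at all, among them receptors that sense neurons and extracellular matrix, secreted proteins and transporters. This state is called homeostatic. It depends on colony stimulating factor signalling, on TGF-beta and on transcription factors such as PU.1, and much of it is known to be lowered where microglia gather at amyloid plaques and take on the disease-associated (DAM) program.

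Total counts per library ranged from 32332185 to 38764643, and mitochondrial genes took between 0.129% and 0.180% of them. Values are given as CPM, the count relative to the library total after TMM normalization, a scaling that corrects for the share of a library taken by a few strongly expressed genes. The order of the 33 genes by level is given as CPM per kilobase of merged exons, while cell type markers are summed, and genes of like level and the most abundant genes of a list chosen, in plain CPM. The label of the cells was checked on the genes of the sort, which gated CD11b+ cells with intermediate CD45. *Itgam* (CD11b) had 188 ± 57.4 CPM in PBS and 239 ± 46.9 CPM in GA (SD, n = 5 each), *Ptprc* (CD45) 533 ± 43.6 and 549 ± 23.8 CPM, and *P2ry12*, a purinergic receptor of microglia stained but not gated on, 6890 ± 316 and 6319 ± 506 CPM. The defining genes of homeostatic microglia were abundant in every library: *Tmem119* had at least 4927 CPM and *Cx3cr1* at least 6600.5 CPM. Of the summed markers of other cell types, neuron markers (10 genes, 2 kept by the filter) summed to 1.59 to 4.58 CPM, endothelial markers (10 genes, 3 kept, 2 at 0 in every library) to 34.4 to 50.2 CPM and oligodendrocyte markers (10 genes, 5 kept) to 175 to 219 CPM, with overlapping ranges in the groups. Astrocyte markers summed to 248 to 353 CPM, border macrophage markers to 358 to 742 CPM, neutrophil markers to 17.6 to 469 CPM and monocyte markers to 32.5 to 90.3 CPM over the 10 libraries. In bulk RNA, fewer cells of a type and less RNA per cell cannot be told apart.

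Promoter sequences from RefSeq on GRCm38.p6 were held for 26 of the 33 genes, as windows from 250 bases before to 50 bases after a start site. They were searched on both strands for the letters AGGAAGT, the core bound by ETS family factors, to which PU.1 belongs. It was present in 6 of 26 genes (23.1%: *Cmtm6*, *Fcrls*, *Hpgds*, *Ltc4s*, *Rnase4* and *Slco2b1*), against 10.7% of all 27025 genes in the same table. The longer letters GAGGAAGT, which contain the former, were in 2 of 26 (7.69%: *Hpgds* and *Slco2b1*) against 3.69% of all genes. The AP-1 letters TGANTCA were in 3 of 26 (11.5%) against 8.97%, and the palindromic SMAD letters GTCTAGAC were in 0 of 26 against 0.248%. A match describes letters in a window and is not a binding site, and none of these data measured binding. The windows of 3 genes are shown, 300 bases each, because they belong to members on either side of the treatment comparison and because one of them holds the longer PU.1 letters. The capitals mark AGGAAGT or its reverse complement ACTTCCT. The windows lie at chr3:87263475-87263774 (*Fcrls*), chr11:50238483-50238782 (*Ltc4s*) and chr6:65144681-65144980 (*Hpgds*), all on the minus strand, and the matches begin at positions -75, -117 and -48 from the RefSeq start. In GENCODE, *Fcrls* and *Hpgds* begin farther upstream, at 87263738 and 65144908, so that their matches lie inside the gene.
Fcrls: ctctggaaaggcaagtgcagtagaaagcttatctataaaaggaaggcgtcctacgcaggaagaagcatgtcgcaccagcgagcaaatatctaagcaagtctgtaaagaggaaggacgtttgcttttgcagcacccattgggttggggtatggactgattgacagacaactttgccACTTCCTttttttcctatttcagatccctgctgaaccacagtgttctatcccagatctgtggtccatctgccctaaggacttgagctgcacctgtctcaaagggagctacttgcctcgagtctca
Ltc4s: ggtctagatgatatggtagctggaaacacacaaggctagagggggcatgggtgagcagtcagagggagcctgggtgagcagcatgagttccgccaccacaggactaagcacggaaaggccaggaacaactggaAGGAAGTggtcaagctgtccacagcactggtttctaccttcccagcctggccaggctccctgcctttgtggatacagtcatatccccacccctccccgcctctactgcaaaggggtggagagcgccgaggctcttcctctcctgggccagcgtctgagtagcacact
Hpgds: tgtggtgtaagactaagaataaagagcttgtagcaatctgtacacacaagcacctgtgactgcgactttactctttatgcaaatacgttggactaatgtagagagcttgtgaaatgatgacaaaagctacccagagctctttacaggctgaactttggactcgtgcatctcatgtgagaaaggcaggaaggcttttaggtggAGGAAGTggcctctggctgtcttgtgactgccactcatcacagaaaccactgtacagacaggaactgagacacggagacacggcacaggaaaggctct

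Before any comparison of groups, the 33 genes spanned a wide range of levels. *Cst3*, which encodes the secreted cysteine protease inhibitor cystatin C, was highest at 20722 CPM per kilobase, the mean of all libraries. *Tmem119*, a transmembrane protein used to tell microglia from other macrophages, followed at 2474 CPM per kilobase. *Selplg* (1611), *Cx3cr1* (1570.0), *Laptm5* (1348), *Sparc* (1166) and *Fcrls* (1124 CPM per kilobase) came next. At the other end stood *Nav3* at 24.7 and *Scoc* at 17.9 CPM per kilobase. In this order *Selplg* and *Cx3cr1* differed by less than their spread, with 1645 ± 131 against 1608 ± 113 CPM per kilobase in the PBS libraries (SD, n = 5), and so did *Slc2a5* at 407 ± 38.2 and *Slco2b1* at 403 ± 22.4 CPM per kilobase. Of the 33 genes, 28 lay above the 95th percentile of the level per kilobase of all genes tested. Each was read deeply, with 2337 to 1071529 counts per gene and library.

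**Figure D1:**
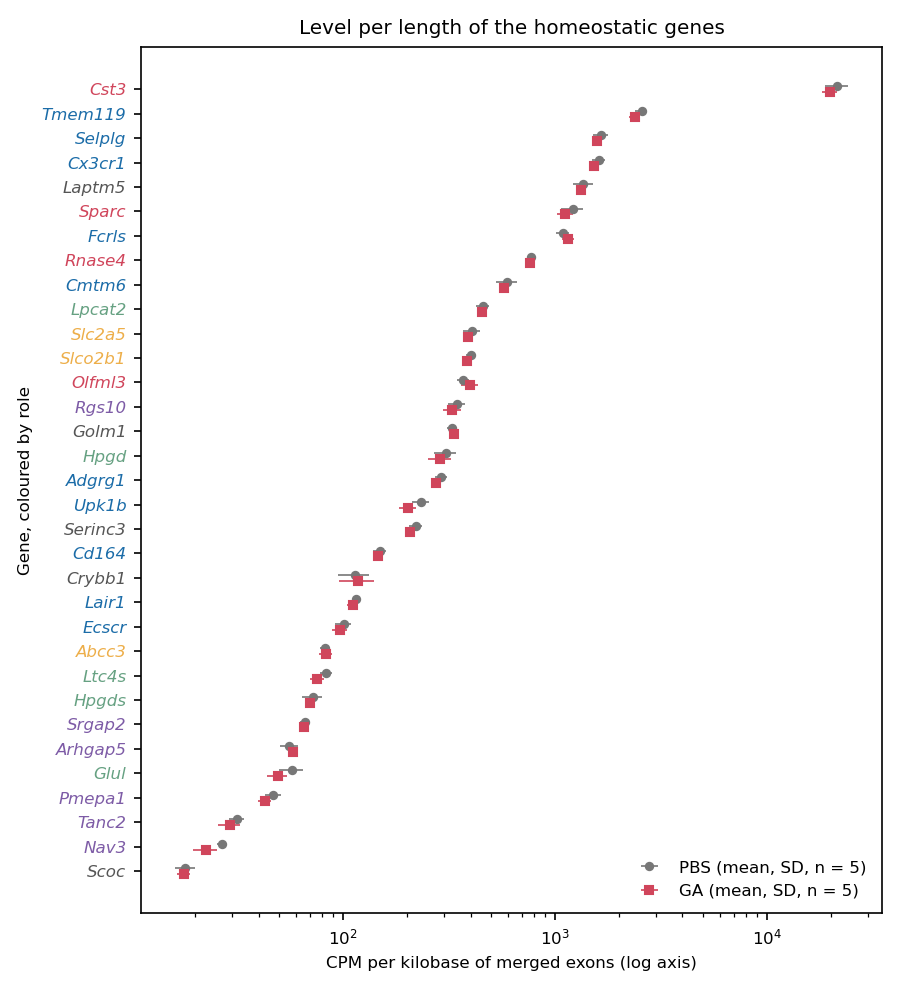
Level per length of the 33 homeostatic genes in CPM per kilobase of merged exons on a log axis, with the mean and SD of the 5 PBS libraries (grey circles) and the 5 GA libraries (red squares). Gene names are coloured by role (blue surface, red secreted, yellow transporters, green enzymes, purple signalling, grey other intracellular); *Cst3* stands apart at 20722 CPM per kilobase and the group means of every gene lie close together.

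The genes also varied little among libraries of one group. Their median within-group SD was 0.109 on the log2 scale, against 0.12 for the 2670 genes at or above the level of the lowest of them (76.6 CPM) and 0.22 for all genes tested, and 27 of 33 were below the 25th percentile of all genes. *Rnase4*, a secreted ribonuclease, was the steadiest with a within-group SD of 0.06, and *Crybb1*, a beta crystallin known from the lens, varied most with 0.25. *Golm1* shares 1297 exon bases with *Naa35* and *Rnase4* 219 with *Ang*. *Slco2b1* shares 471, *Lpcat2* 287 and *Ltc4s* 268 exon bases with antisense genes. Shorter stretches are shared by *Serinc3* (134 bases), *Glul* (116, with *Teddm2*), *Cx3cr1* (78) and *Ecscr* (62). The strand setting of the counting is not given in the sources used here, so reads in these stretches cannot be assigned to either gene.

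In the comparison of GA with PBS, no homeostatic gene passed the test. Of the 33, 0 had an adjusted p under 0.05 in edgeR's quasi-likelihood test (background 0%: 0 of 14481 genes tested), and DESeq2 and limma-voom also gave 0 of 33. Small differences nevertheless leaned one way: the log2 fold change was below 0 in 27 of 33 genes (81.8%) and above 0 in 6, whereas 49.9% of all genes tested and 50.4% of the 2670 genes of like level were below 0. The median over the 33 genes was -0.06, with a range from -0.26 (*Nav3*) to 0.10 (*Olfml3*), and the median of all genes was 0.00. Without the PBS library 388_5 the median over the 33 genes was -0.03. The same genes share libraries and are not independent, so the 27 of 33 is given as a count without a test.

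The size of a change that these libraries leave possible was narrow. The 95% intervals of the log2 fold change stayed within 0.5 on either side of 0 for all 33 genes, from a lowest bound of -0.43 to a highest of 0.33, and within 0.25 for 22 of them. At an unadjusted p under 0.05, edgeR gave 3 genes, all lower in GA (*Nav3*, *Upk1b* and *Glul*), where 3.17% of all genes were lower at that level, and 0 genes higher in GA, where 2.58% were higher. The groups overlapped for every one of the 33, while among all genes 0.456% had every GA library below every PBS library and 0.435% every GA library above. In 8 genes (*Cd164*, *Cmtm6*, *Rnase4*, *Slc2a5*, *Lpcat2*, *Hpgds*, *Arhgap5* and *Laptm5*) all GA libraries lay between the lowest and the highest PBS library. The share of all genes with this pattern was not counted, so these 8 are listed as a description and not as a trait of the homeostatic genes.

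**Figure D2:**
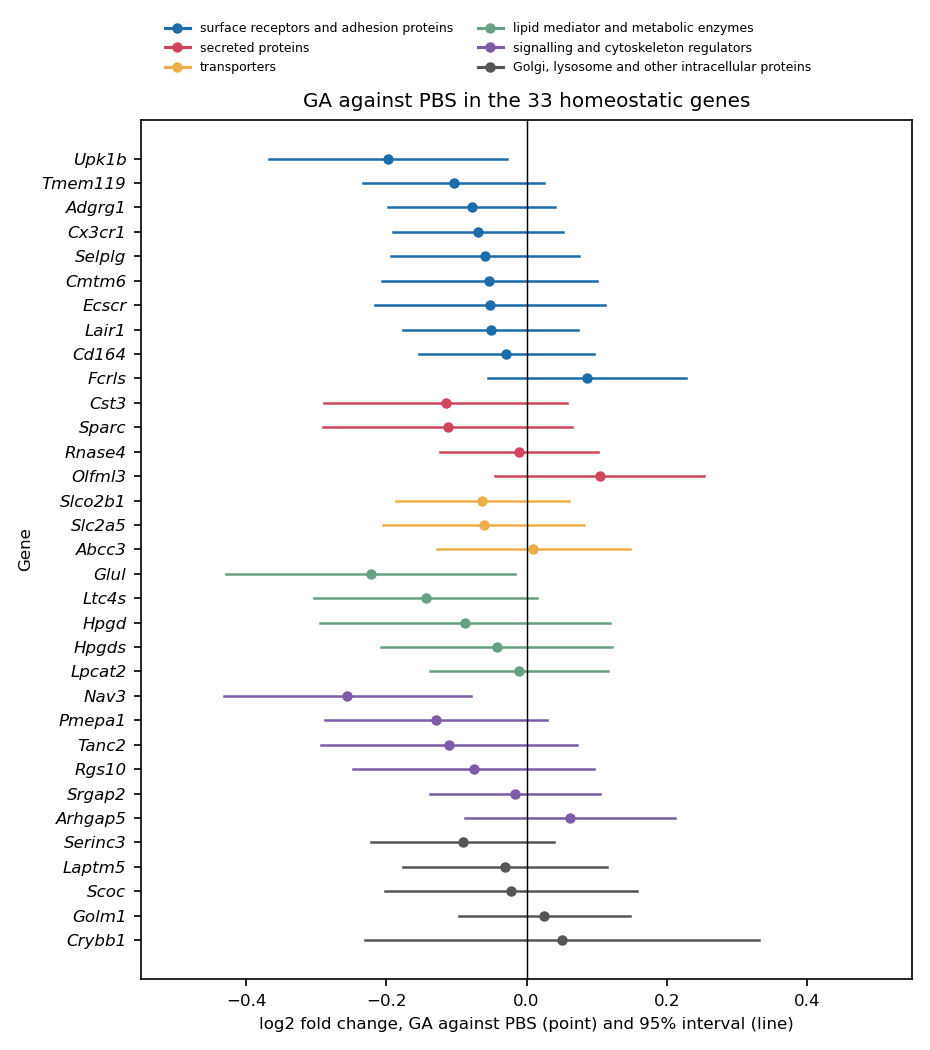
Log2 fold change of GA against PBS (points) with its 95% interval (lines) from edgeR for the 33 genes, grouped and coloured by role. Points lie left of 0 for 27 genes, intervals run from -0.43 to 0.33, and the intervals of *Nav3*, *Upk1b* and *Glul* leave out 0 before adjustment for 14481 genes.

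The 33 genes were also averaged in each library. Mean log2 CPM was 9.91 ± 0.053 in PBS and 9.85 ± 0.022 in GA (SD, n = 5 each), a difference of -0.058, with a range from 9.85 to 9.97 in PBS and from 9.82 to 9.88 in GA. The ranges overlapped. Together the 33 genes took 8.17 ± 0.39% of all counts in PBS and 7.78 ± 0.25% in GA. The PBS library 388_5 was the highest of all libraries for 14 of 33 genes and 388_1 for 7, whereas 394_2 was the lowest for 8. Part of the standing of 388_5 followed its scaling, since its TMM factor was 0.954 and it was highest for 10 genes without TMM, when 388_1 was highest for 11. Without 388_5 the number of genes lower in GA went from 27 to 22 and the mean difference from -0.058 to -0.040.

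**Figure D3:**
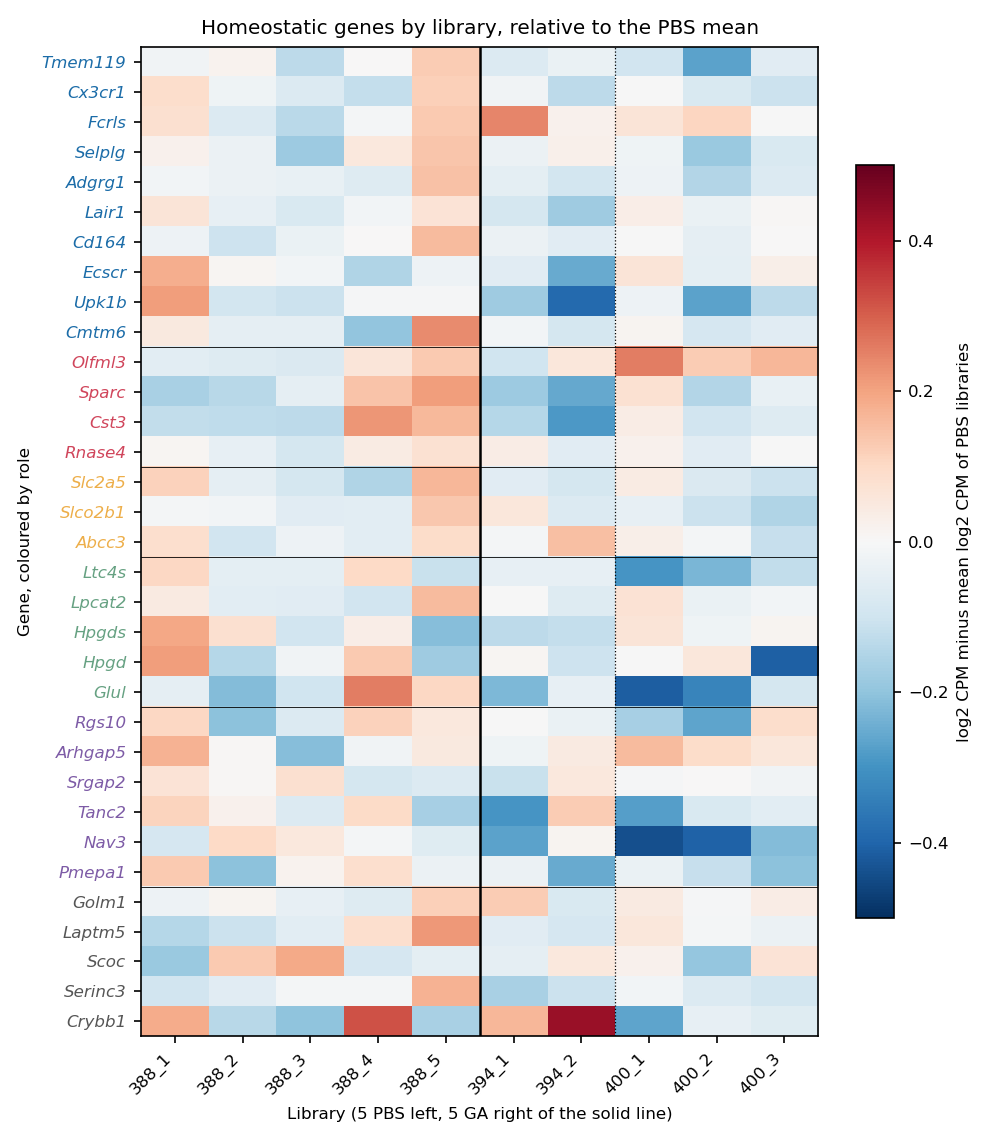
Each cell is the log2 CPM of a gene in a library minus the mean log2 CPM of the 5 PBS libraries, with PBS left and GA right of the solid line, and the GA prefixes 394 and 400 either side of the dotted line. Rows are grouped by role (name colours: blue surface, red secreted, yellow transporters, green enzymes, purple signalling, grey other intracellular). Red predominates in 388_1 and 388_5, and blue in the PBS libraries 388_2 and 388_3 and in every GA library but 400_1. In 400_1, 16 genes were above the PBS mean, as many as in the PBS library 388_4. Differences rarely pass 0.4.

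Among the 10 surface receptors and adhesion proteins, 9 had a log2 fold change below 0 (median -0.06) and 0 passed the test. *Upk1b* (chr16:38773184-38800328, minus strand, GRCm38), a tetraspanin first known from urothelium, had 559, 454, 449.6, 482 and 482 CPM in the PBS libraries 388_1 to 388_5 and 428, 369, 476, 402 and 442 CPM in the GA libraries 394_1, 394_2, 400_1, 400_2 and 400_3. All GA libraries but 400_1 lay below the lowest PBS library. Its log2 fold change was -0.20 (SE 0.08), or 1.15-fold lower, with an edgeR p of 0.026 and an adjusted p of 0.854, and the exact two-sided permutation test gave p = 0.0317. *Tmem119* (chr5:113793729-113800516, minus strand) had 5848, 6004, 5412, 5932 and 6472 CPM in PBS and 5646, 5789.6, 5546, 4927 and 5694 CPM in GA in the same order of libraries. Library 400_2 alone was below the PBS range, and the log2 fold change was -0.10 (SE 0.06, edgeR adjusted p = 0.895).

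*Fcrls* (chr3:87250758-87263738, minus strand), an Fc receptor-like scavenger receptor typical of mouse microglia, was the one surface gene above 0. It had 2686, 2418, 2314, 2521 and 2783 CPM in PBS and 3006, 2574, 2657, 2731 and 2536 CPM in GA. Only 394_1 exceeded the PBS range, and the log2 fold change was 0.09 (SE 0.07, edgeR adjusted p = 0.910). Without 394_1 it was 0.05. The fractalkine receptor *Cx3cr1*, through which microglia sense neuronal CX3CL1, had 7243 ± 510.5 CPM in PBS and 6903 ± 265 CPM in GA (SD, n = 5) with a log2 fold change of -0.07 (95% interval -0.19 to 0.05). For *Selplg*, the selectin ligand PSGL-1, the means were 7026 ± 561 and 6742 ± 366 CPM, and for *Adgrg1*, the adhesion receptor GPR56, 1574 ± 95.9 and 1492 ± 48.4 CPM. *Lair1*, an inhibitory collagen receptor, *Cd164*, a sialomucin, and *Cmtm6*, a membrane protein that stabilizes PD-L1, had log2 fold changes of -0.05, -0.03 and -0.05. *Ecscr*, a surface protein also known from endothelium, had 176 ± 14.8 CPM in PBS and 170.0 ± 14.03 CPM in GA, beside summed endothelial markers of 37.1 to 50.2 CPM in PBS and 34.4 to 49.1 CPM in GA.

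Of the 4 secreted proteins, 3 were below 0 and 0 passed the test. *Cst3* (chr2:148871722-148875692, minus strand) had 24869.9, 24831, 24745, 31591 and 30368 CPM in PBS and 24586, 22244, 27820.3, 25350.1 and 25931 CPM in GA. The PBS libraries fell into 3 low ones and 2 high ones (388_4 and 388_5), farther apart than the group means, and the log2 fold change was -0.12 (SE 0.08, edgeR adjusted p = 0.898). Without 388_4 it was -0.06 and without 388_5 -0.07. *Olfml3* (chr3:103722222-103738001, minus strand), a secreted olfactomedin-like protein, had 2191, 2169.6, 2158, 2366 and 2485 CPM in PBS and 2118, 2363, 2711, 2483 and 2548 CPM in GA. Its log2 fold change of 0.10 (SE 0.07, edgeR adjusted p = 0.896) was the highest of the 33 genes, with 2 GA libraries above and 1 below the PBS range. *Sparc*, a collagen-binding matricellular protein, had 4590.4 ± 538 CPM in PBS and 4246 ± 388 CPM in GA, and *Rnase4* 1260.0 ± 57.1 and 1250.5 ± 38.3 CPM (SD, n = 5).

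*Cst3* was not alone in standing highest in 388_4 and 388_5. In 6 of the 33 genes (*Selplg*, *Sparc*, *Cst3*, *Rnase4*, *Glul* and *Laptm5*) both of these libraries exceeded the other 8, which held for 18.2% of the homeostatic genes, for 11.8% of the 2670 genes of like level and for 5.77% of all genes tested. These 2 libraries also had the highest shares of mitochondrial counts, 0.180% and 0.175% against 0.129% to 0.152% in the other 8. The part of that difference in the gene values was not tested, and the pair was singled out after its values were seen.

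Of the 3 transporters, 2 were below 0 and 0 passed the test. *Slc2a5* (chr4:150119283-150144169, plus strand), the fructose transporter GLUT5, had 1495, 1339, 1300.2, 1246 and 1549 CPM in PBS and 1328, 1299, 1419.7, 1312 and 1282 CPM in GA. All GA libraries were inside the PBS range, and the log2 fold change was -0.06 (SE 0.07, edgeR adjusted p = 0.945). *Slco2b1*, an organic anion transporter, had 2404 ± 134 CPM in PBS and 2301 ± 127 CPM in GA with a log2 fold change of -0.06 (95% interval -0.19 to 0.06). *Abcc3*, an efflux pump for organic anions, had 469.6 ± 27.7 and 473 ± 31.5 CPM, a log2 fold change of 0.01 (95% interval -0.13 to 0.15).

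All 5 enzymes of lipid mediators and metabolism were below 0 (median -0.09), and 0 passed the test. *Glul* (chr1:153899944-153909723, plus strand), glutamine synthetase, had 184, 163, 177, 227 and 204 CPM in PBS and 162, 184, 142, 151 and 178 CPM in GA. The groups overlapped, with 3 GA libraries below the lowest PBS library and with 388_4 and 388_5 the highest of all. Its log2 fold change was -0.22 (SE 0.10), or 1.17-fold lower, with an edgeR p of 0.0366 and an adjusted p of 0.854, and the exact permutation p was 0.0952. *Glul* is also known as an astrocyte enzyme. Astrocyte markers (10 genes, 5 kept by the filter) summed to 248 to 305 CPM in PBS and 251 to 353 CPM in GA, most of it *Slc1a3* at 274 ± 22.8 and 289 ± 44.6 CPM, while *Gfap* had 2.20 ± 1.77 and 2.41 ± 1.12 CPM (SD, n = 5). Their part in the *Glul* values was not tested.

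*Ltc4s* (chr11:50236461-50238616, minus strand), leukotriene C4 synthase, is the member whose promoter match lies at -117 in the sequence shown. It had 90.9, 81.8, 81.8, 90.7 and 78.3 CPM in PBS and 82.2, 82.2, 68.98, 72.1 and 77.7 CPM in GA, a log2 fold change of -0.14 (SE 0.07, edgeR adjusted p = 0.882). The 3 libraries of prefix 400 were below every PBS library and the 2 of prefix 394 were inside the PBS range. *Lpcat2* (chr8:92855339-92919279, plus strand), an acyltransferase that makes platelet-activating factor, had 1599, 1495, 1489, 1450.3 and 1728 CPM in PBS and 1546, 1482, 1627, 1515 and 1534 CPM in GA. Its groups lay on top of each other, with a log2 fold change of -0.01 (SE 0.06, edgeR adjusted p = 0.986). *Hpgds*, the prostaglandin D synthase of blood cell lineages, had 463 ± 50.4 CPM in PBS and 450.0 ± 26.4 CPM in GA, and *Hpgd*, which inactivates prostaglandins, 514 ± 60.5 and 484 ± 58.8 CPM (SD, n = 5).

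Among the 6 signalling and cytoskeleton genes, 5 were below 0 (median -0.09), and 0 passed the test. *Nav3* (chr10:109681259-110456204, minus strand), a neuron navigator protein that binds microtubules, showed the smallest p of all 33 genes. It had 385, 437, 423, 405 and 391 CPM in PBS and 339, 411, 300.3, 308 and 350.4 CPM in GA. Of the GA libraries, 4 lay below the lowest PBS library and 394_2 lay among the PBS libraries. The log2 fold change was -0.26 (SE 0.08, 95% interval -0.43 to -0.08), or 1.19-fold lower, with an edgeR p of 0.00765 and an adjusted p of 0.847, and the exact permutation p was 0.0317, where 0.00794 is the smallest that 5 against 5 libraries allow. *Pmepa1* (chr2:173224458-173276533, minus strand), a gene induced by TGF-beta whose product dampens SMAD signalling, had 251, 199, 232, 242 and 224 CPM in PBS and 224, 192, 224, 212 and 199 CPM in GA. Its log2 fold change was -0.13 (SE 0.07, edgeR adjusted p = 0.895).

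*Rgs10* (chr7:128373621-128418758, minus strand), which speeds the switching off of G proteins, had 634, 512, 563, 639.5 and 611 CPM in PBS and 589, 576, 526, 492 and 626 CPM in GA. Library 400_2 alone was below the PBS range, with a log2 fold change of -0.08 (SE 0.08, edgeR adjusted p = 0.945). With 400_2 left out the log2 fold change was -0.03. *Arhgap5* (chr12:52503972-52571975, plus strand), a GTPase-activating protein, was above 0 with 683, 608, 523, 598 and 626 CPM in PBS and 597, 625, 676, 645 and 629.6 CPM in GA. All GA libraries were within the PBS range, and the log2 fold change was 0.06 (SE 0.07, edgeR adjusted p = 0.945). *Srgap2*, a membrane-bending GTPase-activating protein, had 830.0 ± 43.98 CPM in PBS and 821 ± 33.3 CPM in GA, and *Tanc2*, a scaffold protein, 524 ± 41.5 and 485 ± 59.5 CPM (SD, n = 5).

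**Figure D4:**
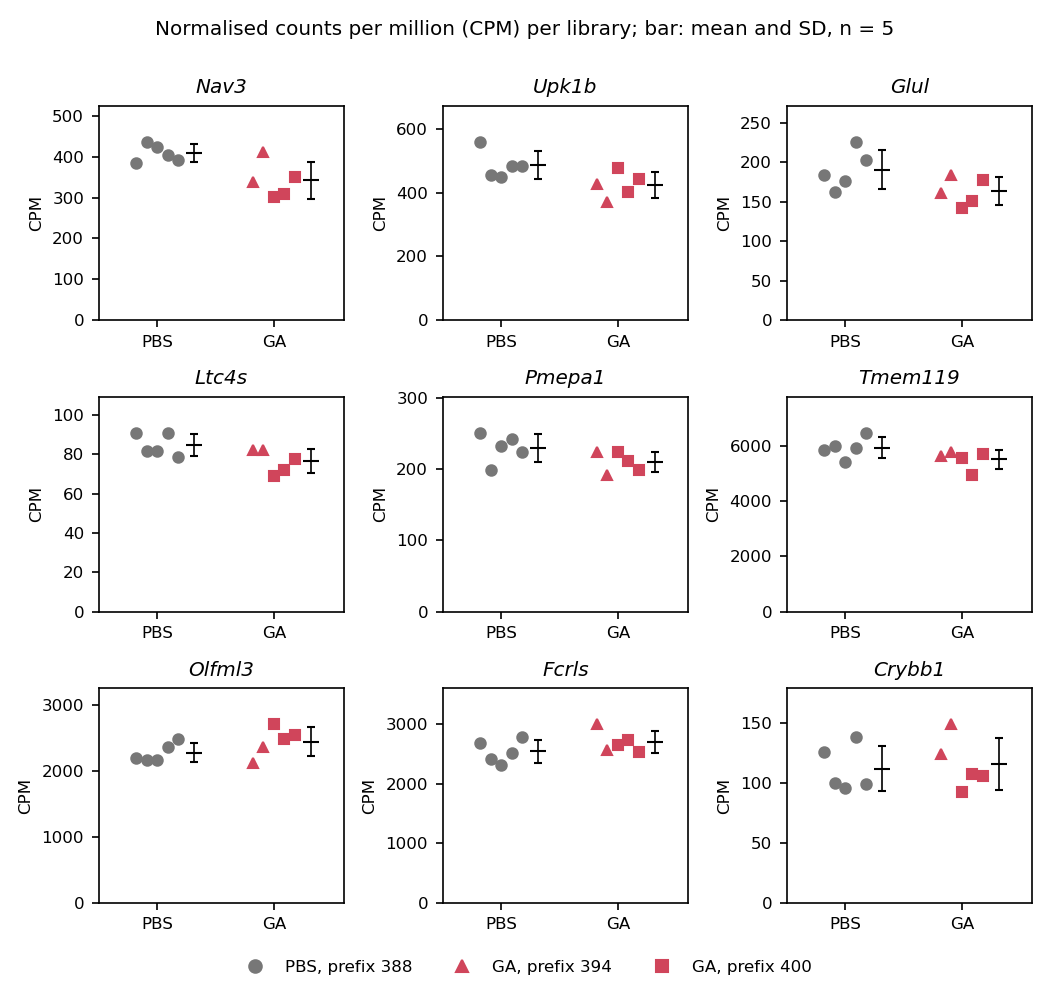
Normalised CPM per library for 9 of the genes, on axes that start at 0, with PBS as grey circles, GA of prefix 394 as red triangles and GA of prefix 400 as red squares. The bar beside each group is the mean with SD (n = 5); in *Nav3*, *Upk1b* and *Glul* most but not all GA libraries sit below the PBS libraries, and in *Crybb1* the 2 libraries of prefix 394 sit above the 3 of prefix 400.

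The 5 Golgi, lysosomal and other intracellular proteins were split, 3 below and 2 above 0. *Laptm5* (chr4:130913125-130936141, plus strand), a lysosomal membrane protein of blood cell lineages, had 4656, 4776, 4953, 5439.7 and 5977 CPM in PBS and 4935, 4853, 5345, 5097 and 5039.6 CPM in GA. Every GA library was inside the PBS range, with a log2 fold change of -0.03 (SE 0.07, edgeR adjusted p = 0.973). *Golm1* (chr13:59634626-59675811, minus strand), a Golgi membrane protein, had 1420.4, 1459, 1405, 1385 and 1570.5 CPM in PBS and 1578, 1373, 1493, 1442 and 1483 CPM in GA, a log2 fold change of 0.03 (SE 0.06, edgeR adjusted p = 0.972). *Crybb1* (chr5:112255815-112269585, plus strand) had 126, 100.2, 95.99, 138 and 98.9 CPM in PBS and 124, 149, 92.1, 107 and 106 CPM in GA. It was the most variable of the 33, with the widest interval, -0.23 to 0.33 around a log2 fold change of 0.05 (edgeR adjusted p = 0.975). *Serinc3*, a serine incorporator, had 846 ± 62.6 CPM in PBS and 794 ± 29.96 CPM in GA, and *Scoc*, a Golgi coiled-coil protein that takes part in autophagy, 77.2 ± 8.38 and 75.98 ± 5.49 CPM (SD, n = 5).

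The GA libraries carried different prefixes, so the genes were also compared between the 3 libraries of prefix 400 and the 2 of prefix 394. At an unadjusted p under 0.05 edgeR gave 3 of the 33 genes (background 5.48% of all genes), and 0 with adjustment (background 0.0138%, 2 genes). *Crybb1* was lower in prefix 400, at 101.8 against 136.4 CPM (log2 fold change -0.42, SE 0.16, edgeR adjusted p = 0.712), *Nav3* was lower at 319.6 against 375 CPM (-0.23, SE 0.10, adjusted p = 0.890), and *Olfml3* was higher at 2580.4 against 2240.5 CPM (0.20, SE 0.09, adjusted p = 0.872). Set against the PBS libraries separately, the log2 fold change of *Nav3* was -0.12 in prefix 394 and -0.35 in prefix 400. For *Glul* it was -0.13 and -0.27, for *Upk1b* -0.28 and -0.14, and for *Olfml3* -0.02 and 0.19. The number of genes below 0 was 26 with prefix 394 alone and 24 with prefix 400 alone.

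Other genes of the same biology gave a measure of how far the lean extended. Of 30 further homeostatic genes, all kept by the filter, 18 were below and 12 above 0 with a median log2 fold change of -0.01, and 0 had an unadjusted p under 0.05. Among the most abundant were *Csf1r*, the receptor on which microglia depend, with 16777 ± 1190.5 CPM in PBS and 16703 ± 823 CPM in GA, and *Ctss*, cathepsin S, with 9381 ± 1226 and 9348 ± 499 CPM (SD, n = 5). *P2ry12* had 7081, 6722, 6603, 6692 and 7351 CPM in PBS and 6427, 5570.0, 6881, 6103 and 6614 CPM in GA. Its groups overlapped, with a log2 fold change of -0.12 (SE 0.06, edgeR adjusted p = 0.872).

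Of 17 TGF-beta pathway genes kept of 20, 8 were below 0 (median 0.03) and 0 had an unadjusted p under 0.05. The receptors *Tgfbr1* and *Tgfbr2* had log2 fold changes of -0.02 and 0.10, and *Nrros*, which holds latent TGF-beta at the microglial surface, had -0.09 (SE 0.12). DAM genes leaned the other way, with 23 of 30 above 0 and a median of 0.06. Of these, *Csf1*, a growth factor of the lineage, had 103 ± 22.8 CPM in PBS and 142 ± 13.6 CPM in GA (log2 fold change 0.47, SE 0.13), and *Cst7*, cystatin F, 275 ± 48.6 and 341 ± 63.5 CPM (0.31, SE 0.14), with edgeR adjusted p-values of 0.847 and 0.854. *Apoe*, *Ctsb* and *Ctsd*, the most abundant of that list, had 0.15, 0.06 and 0.07. Of 15 immediate early genes kept of 16, which rise when cells are handled, 10 were below 0 (median -0.01), with *Jun*, *Junb* and *Btg2*, the most abundant, at 0.15, -0.16 and 0.08. *Klf2*, at 9.13 ± 4.27 CPM in PBS and 6.07 ± 0.64 CPM in GA (SD, n = 5), had a log2 fold change of -0.59 (SE 0.24, edgeR adjusted p = 0.854).

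**Figure D5:**
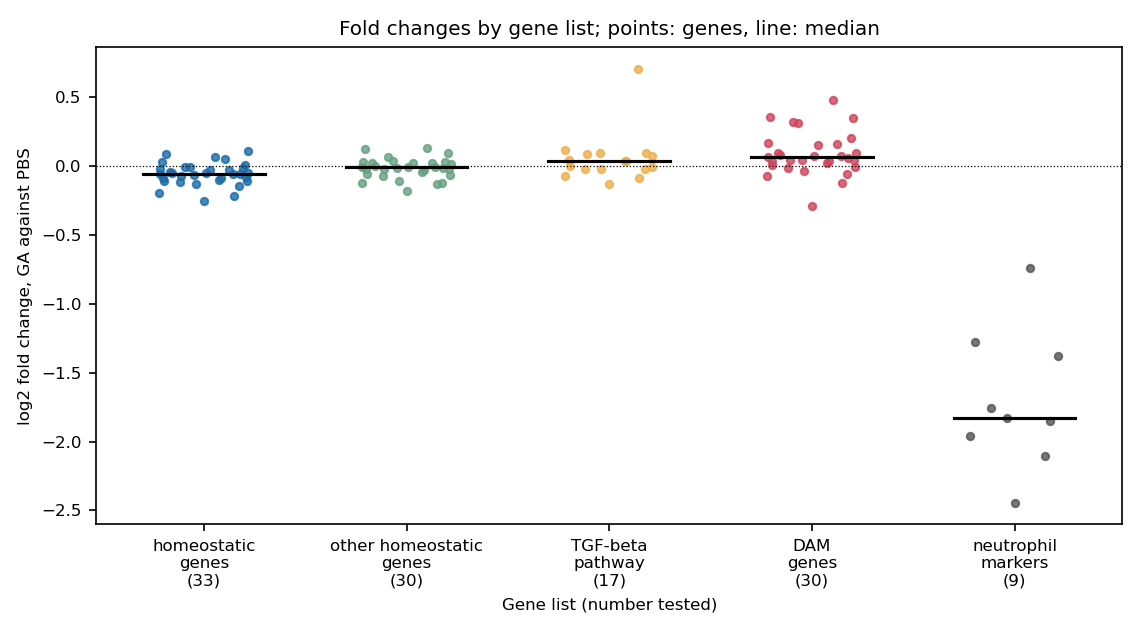
Log2 fold change of GA against PBS for each gene tested in 5 lists, with the list median as a line. The homeostatic genes have a median of -0.06, the further homeostatic genes -0.01, the TGF-beta pathway 0.03, the DAM genes 0.06 and the neutrophil markers -1.83.

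Markers of blood cells were followed in the same libraries. All 9 neutrophil markers kept of 12 were below 0 (median -1.83), 7 of them at an unadjusted p under 0.05 (background 3.17% of all genes lower) and 0 with adjustment. Their sum ranged from 44.0 to 469 CPM in PBS and from 17.6 to 183 CPM in GA, so that the ranges overlapped, and none of the 12 was at 0 in every library. *Ngp*, a neutrophil granule protein, had 69.6 ± 42.7 CPM in PBS and 16.2 ± 16.2 CPM in GA, *Ltf*, lactoferrin, 60.1 ± 37.1 and 16.6 ± 17.1 CPM, and *S100a9* 53.7 ± 35.2 and 15.1 ± 13.96 CPM (SD, n = 5). *S100a8*, *Camp*, *Lcn2* and *Mmp8* had log2 fold changes of -1.76, -2.44, -1.96 and -1.38. Monocyte markers (10 genes, 7 kept) were below 0 in 6 (median -1.28), with sums of 32.5 to 90.3 CPM in PBS and 37.3 to 51.5 CPM in GA, and *Ly6c2* and *Chil3* had -1.94 and -2.23, at 0.81 and 18.7 CPM in PBS. *Ccr2*, the chemokine receptor of monocytes, had 31.3 ± 11.6 and 29.2 ± 1.87 CPM, and *Ms4a4c* was above 0 at 0.40. T and B cell markers (11 genes, 3 kept) were above 0 in 2 (median 0.29). Their sums were 16.6 to 27.4 CPM in PBS and 16.9 to 26.2 CPM in GA. The 2 above 0 were near the floor. *Cd4* had 0.38 CPM in PBS and 0.58 CPM in GA (0.62, SE 0.86), and *Cd79a* 0.35 and 0.42 CPM (0.29, SE 0.51). *Cd79b*, by far the most abundant of the 3, was below 0 with 21.95 and 19.68 CPM (-0.16, SE 0.15). Border macrophage markers (12 genes, all kept) were below 0 in 9 (median -0.24), with sums of 358 to 742 CPM in PBS and 418 to 690 CPM in GA that overlapped. By far the most abundant was *Stab1*, which was above 0 with 392 ± 59.0 and 428 ± 59.1 CPM (0.13, SE 0.11). *Mrc1* and *F13a1*, next in level, were below 0 at -0.12 and -0.19.

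The gate on intermediate CD45 is meant to leave out blood cells with high CD45. The part of such cells in the homeostatic gene values was not tested, but the comparison was repeated without the 3 PBS libraries with the highest neutrophil sums (388_3, 388_4 and 388_5), a choice made after the data were seen that leaves 2 PBS libraries. Without them 22 of 33 homeostatic genes were below 0, with 0 adjusted p-values under 0.05 and 4 genes with an unadjusted p under 0.05 (*Nav3*, *Upk1b* and *Hpgds* lower in GA, *Laptm5* higher), where 7.19% of all genes were under it in that fit. *Nav3* stayed at -0.26 and *Upk1b* went from -0.20 to -0.26, both still under that threshold. *Glul* went to -0.08 and lost it, *Cst3* to 0.02, *Sparc* to 0.05 and *Laptm5* to 0.10, and *Hpgds* went from -0.04 to -0.17. *Glul*, *Cst3*, *Sparc* and *Laptm5* are among the genes that stood highest in 388_4 and 388_5, both left out here. Their log2 fold changes were bound to rise with that pair removed, so this repeat cannot separate the neutrophil sums from the pair.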

How the data were processed

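RNA of sorted hippocampal microglia was amplified and sequenced as single end reads of 100 nt in 10 libraries, 5 per treatment. The deposited values are raw counts of reads per gene, whole numbers without normalization, made by the authors. The submitters' processing notes name bcl2fastq 2.19.0, fastp 0.20.0, STAR 2.7.0f, Subread 1.6.4 with featureCounts, DESeq2 and the build GRCm38.p6. The annotation and the strand setting are not given in the sources used here. Reads carry no molecular identifiers, so the precision of a count covers counting error only. Each column was assigned by its title, and 0 columns were left without a sample. No library was a copy of another: chi-square per degree of freedom was 14.03 or more over 45 pairs.

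Genes were kept with filterByExpr (minimum count 10), normalized by TMM and tested with the quasi-likelihood F-test of edgeR 4.0.16 in R 4.3.3, on a model of treatment alone, with the Benjamini-Hochberg correction over all 14481 genes and a threshold of 0.05. Log2 CPM used a prior count of 2. Single genes were also compared by two-sided exact permutation tests over 252 arrangements of the libraries. Positions and lengths came from GENCODE M21 (GRCm38), which held 54471 of the symbols exactly once, and promoter windows from RefSeq. The alternatives were DESeq2 1.42.0, limma-voom (limma 3.58.1), DESeq2 size factors, library totals without TMM, other filters and prior counts, robust fits, the GA libraries of either prefix alone, and each library left out in turn.

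The 33 genes, the other lists and these tests were chosen with earlier results of these data known, so no list is independent evidence of its direction. All 33 genes are named. Those with the 5 smallest edgeR p-values in either direction, and the one of highest level per length in each role, are given in every library. Genes named from other lists have an unadjusted p under 0.05 or are among the 3 most abundant of their list, and the genes of the sort are named too. Some genes that this rule names are not reported here.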

Additional observations from a re-analysis of the deposited data

Results flagged for a closer look

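In 68 groups of 5 libraries (each of the 33 genes and the mean over them, in PBS and in GA), the highest or lowest library was compared with the others by Dixon's gap ratio, which chance passes in about 5% of groups. A library stood apart in 3 of them. *Tmem119* was low in the GA library 400_2, with 4927 CPM against 5546 to 5790 CPM in the other GA libraries (gap ratio 0.733). The PBS library 388_5 was high for *Adgrg1*, with 1742 CPM against 1504 to 1557 CPM (0.763), and for *Slco2b1*, with 2634 CPM against 2309 to 2386 CPM (0.751). Without 400_2 the log2 fold change of *Tmem119* was -0.06. Without 388_5 that of *Adgrg1* was -0.03 and that of *Slco2b1* -0.02.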

How the results depend on the processing

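No homeostatic gene passed the adjusted threshold in any of the 20 other fits, which were DESeq2, limma-voom, other scalings, filters and spreads, the GA libraries of either prefix alone, each library left out in turn, and the PBS libraries with the highest neutrophil sums left out, an alternative added after the data were seen. Over all genes, 459 lower and 374 higher had an unadjusted p under 0.05 in edgeR, and DESeq2 called 2 with adjustment. The number of homeostatic genes at an unadjusted p under 0.05, 3 as reported, was 1 with the GA libraries of prefix 394 alone (3.24% of all genes in that fit), 4 with prefix 400 alone (6.47% of all genes; 3 lower and *Olfml3* higher), and between 1 (without 400_2, 4.27% of all genes) and 4 (without 388_2, 388_3 or 388_5, 6.25% to 7.72% of all genes) with each library left out. Below 0 were 22 (without 388_5) to 28 of 33 genes with each library left out, and 24 to 27 under the other planned settings. The mean difference ran from -0.073 (without 388_3) to -0.040 (without 388_5). Of 660 values of a gene in another fit, 601 kept their direction and their side of the unadjusted threshold, 12 lost it, 9 gained it, and 37 changed sign without reaching it. *Laptm5* reversed to 0.10 without the PBS libraries with the highest neutrophil sums. That fit kept 388_1 and 388_2, the PBS libraries in which *Laptm5* was lowest (4656 and 4776 CPM). Why it was lower in them was not tested. *Nav3* kept p under 0.05 in all 10 fits that left out a library, *Upk1b* in 7 and *Glul* in 5. The median of all genes moved by at most 0.01 on the log2 scale between scalings. No paired analysis was possible because the replicate numbers only follow the order of the samples, and the title numbers repeat among the GA libraries under different prefixes. The intervals given set what 5 libraries a group can show for a single gene.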
